A study of Rattus norvegicus with 15 samples.

Results

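The genes described here are 4 immediate early genes of the rat brain, Fos, Egr1, Arc and Jun, followed through every library of a ribosome profiling experiment. They were chosen as 4 listed Ensembl rows out of 22044 gene rows with a value in all 15 libraries: ENSRNOG00000008015 for Fos, ENSRNOG00000019422 for Egr1, ENSRNOG00000043465 for Arc and ENSRNOG00000026293 for Jun. The choice used identity and not measured values, although earlier results of these data were known when it was made. The names came with the list, and the reference table at hand holds no Ensembl identifiers, so the pairing of name and row was not checked here. Other immediate early genes and markers of brain cell types could not be matched to rows for the same reason and were not analysed here, so the labelled tissue was not checked against its markers.

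Each homogenate pooled the whole brains of 5 Sprague Dawley rats, taken on postnatal day 5. Vehicle footprints (5 libraries) are ribosome-protected fragments from the dense pellet of a sucrose gradient, a fraction rich in RNA granules and tightly packed ribosomes, homogenised without cycloheximide. Cycloheximide footprints (3 libraries) came from tissue homogenised with 100 ug/ml of this inhibitor of translation elongation. Salt footprints (2 libraries) came from pellet material held in 400 mM NaCl and brought back to 150 mM before RNase I digestion. Homogenate RNA-seq (5 libraries, labelled control) measured RNA before any fractionation. The labels do not say whether different library numbers came from separate litters or days, so p-values measure the spread between these libraries, which may be partly technical.

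Immediate early genes are switched on within minutes of neuronal activity or growth factor signals, by transcription factors such as SRF and CREB that are already present, and without new protein synthesis. Fos and Jun encode leucine zipper proteins that pair to form the AP-1 transcription factor, and Egr1 encodes a zinc finger transcription factor. Arc encodes a synaptic protein that promotes removal of AMPA receptors from synapses, and its mRNA travels into dendrites. Their mRNAs are short-lived.

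The table joins libraries of unequal depth. A deep set of 9 libraries (vehicle 1 to 3, cycloheximide 1 to 3 and RNA-seq 1 to 3) held 19223750 to 53645452 counts each, and a shallow set of 6 (vehicle 4 and 5, salt 1 and 2, RNA-seq 4 and 5) held 941546 to 2808669. The sets were told apart by empty cells that the table has for 6 other genes in the deep set alone. All cycloheximide libraries are in the deep set and both salt libraries in the shallow set. Levels are given in CPM (counts scaled to a library total of 1000000). A level of 3 counts, taken as the smallest readable one, corresponds to 0.0559 to 0.156 CPM in the deep set and to 1.07 to 3.19 CPM in the shallow set. CPM is not corrected for gene length, so levels are compared between libraries for 1 gene at a time.

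Egr1 had the clearest pattern of the 4 genes: many footprints for little homogenate RNA in the deep set, and much more RNA in the shallow set. Its RNA level was 3.75, 6.61 and 8.15 CPM in RNA-seq 1 to 3 and 27.6 and 39.7 CPM in RNA-seq 4 and 5. Vehicle footprints of Egr1 stood at 22, 31.1 and 34.2 CPM in libraries 1 to 3 and at 45.4 and 43.1 CPM in libraries 4 and 5. Each shallow RNA-seq library was above every deep one, and footprints exceeded RNA in both sets without overlap, although the lowest deep footprint value (22) lay below the shallow RNA values.

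Egr1 was also the member for which the RefSeq promoter table (build GRCr8) had an entry, 1 of 4. A stretch of 94 bases at chr18:26736933-26737026, plus strand, is shown because it carries the elements through which SRF and CREB are known to act on such promoters. It runs from 145 to 52 bases before the transcript start. Capitals mark 2 CArG boxes (the SRF-binding core) and 2 CRE half-sites (letters TGACG on either strand, so CGTCA as written here).
Egr1: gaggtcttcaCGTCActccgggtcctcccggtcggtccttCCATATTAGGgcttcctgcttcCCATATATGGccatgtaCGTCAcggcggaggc
Over the 250 bases before the start of 33469 rat transcripts in that table, 1.5% held at least 1 CArG box, 0.0209% held 2 or more, and 18.2% held a CRE half-site. A match describes the letters and was not tied to binding or to the counts.

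Fos was low, and its vehicle footprints spanned the widest range of the 4 genes, 6.37-fold over the 5 libraries. Its RNA level was 6.55, 4.46 and 6.30 CPM in RNA-seq 1 to 3, and 4.74 and 11.5 CPM in RNA-seq 4 and 5, the last from 12 and 26 counts. Vehicle footprints of Fos stood at 6.10, 9.99 and 13.4 CPM in libraries 1 to 3 and at 2.11 and 5.70 CPM in libraries 4 and 5. The shallow footprint values rest on 4 and 16 counts, and the 95% exact counting interval of vehicle 4 ran from 0.575 to 5.40 CPM. Both shallow footprint libraries were below all 3 deep ones, while the RNA values of the sets overlapped.

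Jun had the steadiest footprints in the deep set. RNA-seq 1 to 3 gave 53.1, 42.3 and 40.9 CPM, and RNA-seq 4 and 5 gave 67.1 and 45.0 CPM. Vehicle footprints of Jun stood at 51.6, 58.8 and 58.0 CPM in libraries 1 to 3 and at 31.1 and 41.3 CPM in libraries 4 and 5. In the deep set RNA-seq 1 lay above vehicle footprint 1, so the kinds overlapped, and in the shallow set both footprint libraries lay below both RNA libraries.

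Arc differed least between footprints and RNA in the deep set. Its RNA level was 9.78, 8.45 and 9.15 CPM in RNA-seq 1 to 3, and 14.2 and 14.1 CPM in RNA-seq 4 and 5. Vehicle footprints of Arc stood at 10.0, 9.45 and 11.8 CPM in libraries 1 to 3 and at 3.69 and 12.5 CPM in libraries 4 and 5. The shallow footprint libraries differed 3.37-fold from each other, on 7 and 35 counts, and both lay below the shallow RNA values.

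**Figure D1:**
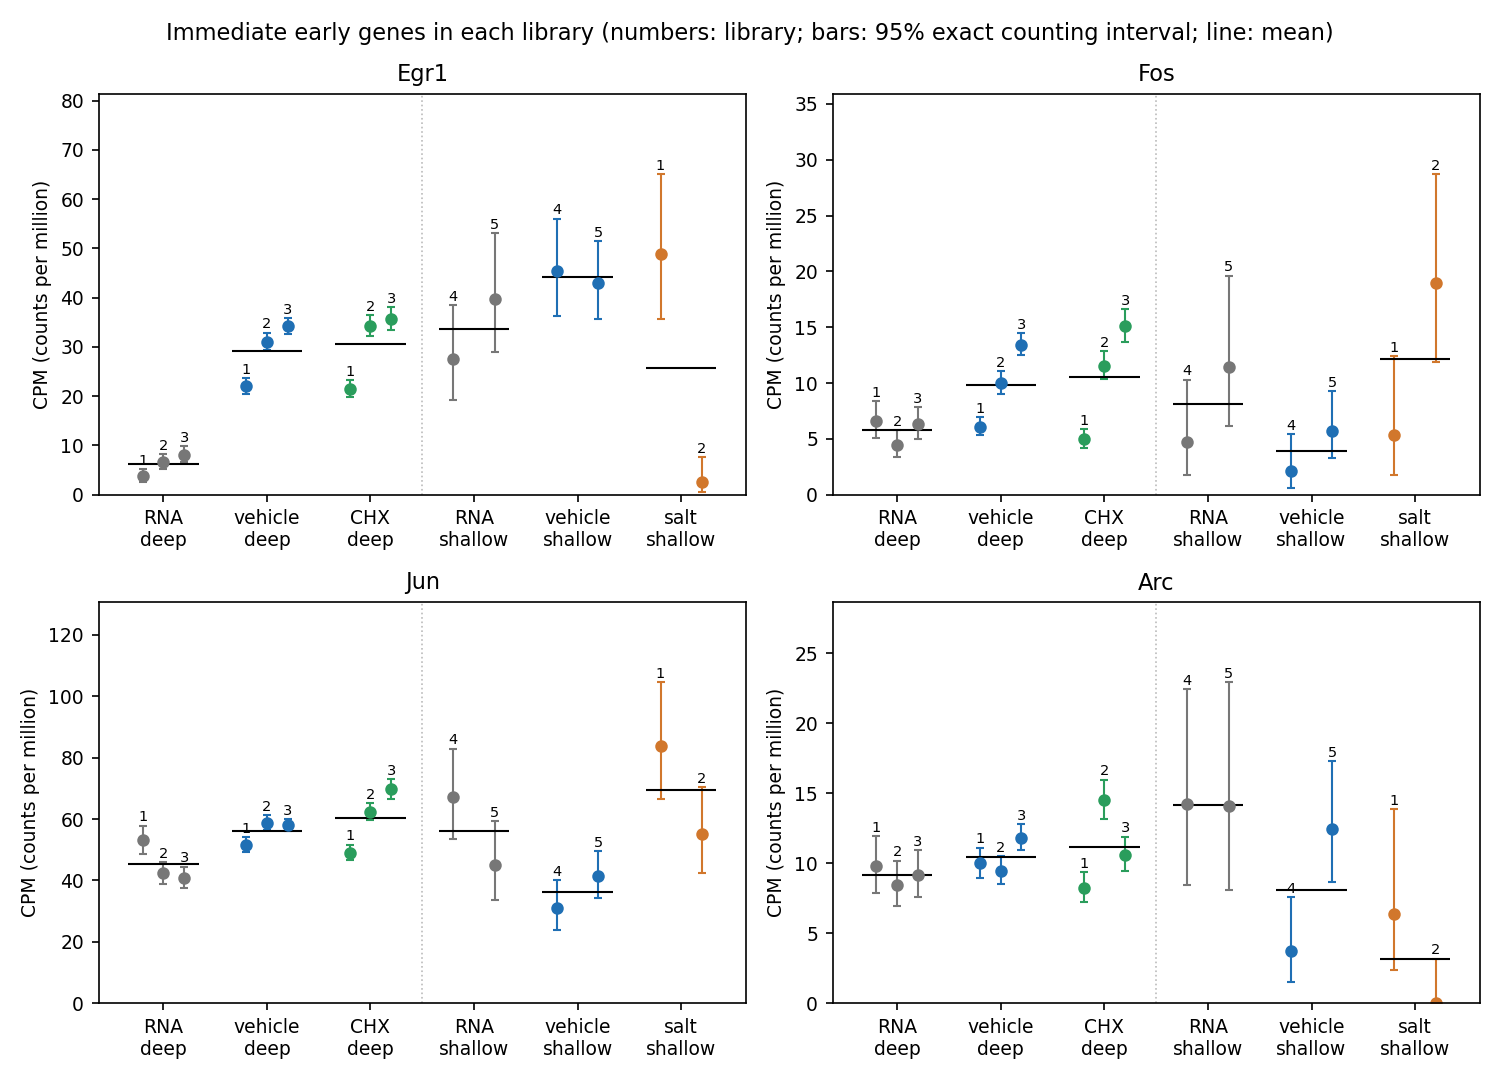
CPM of each gene (y axis, linear, 1 panel a gene) in every library, grouped along the x axis by kind and library set, with the deep set left of the dotted line. Points carry the library number, bars are 95% exact counting intervals (on read pairs for RNA-seq), and the horizontal lines are means; CHX is cycloheximide. Egr1 RNA lies at 3.75 to 8.15 CPM in the deep set and at 27.6 and 39.7 CPM in the shallow set.

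Vehicle footprints were compared with homogenate RNA to ask how far granule-fraction footprints of these transcripts depart from the amount of their RNA. Over all 10 libraries, with the library set as a term, Egr1 had 4.11 times as many footprints as RNA (log2 ratio 2.04, 95% interval 1.15 to 2.93, edgeR adjusted p = 0.00186). Fos (log2 ratio 0.73, interval -0.35 to 1.80), Jun (0.46, -0.10 to 1.03) and Arc (0.37, -0.45 to 1.18) did not pass the test, with edgeR adjusted p of 0.277, 0.188 and 0.478. So 1 of the 4 genes was called, in a comparison that called 35.4% of 15520 genes, 15.2% higher and 20.2% lower in footprints. Footprints came from the dense pellet and RNA from the homogenate before fractionation. The ratio therefore cannot separate how much of an RNA entered the pellet from how many ribosomes it carried there.

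The ratios were also fitted within each library set. In the deep set, 3 against 3 libraries, all 4 genes had more footprints than RNA by edgeR's test. Egr1 was 6.92-fold higher (log2 2.79, interval 2.07 to 3.51, adjusted p = 0.00018), and 99.9% of the 15335 genes tested had a lower ratio. Fos was 2.53-fold higher (log2 1.34, interval 0.61 to 2.07, adjusted p = 0.00685), with 95% of genes lower. Jun was 1.83-fold higher (log2 0.87, interval 0.48 to 1.27, adjusted p = 0.00257) and Arc 1.69-fold higher (log2 0.76, interval 0.28 to 1.24, adjusted p = 0.0147). This fit called 51.3% of genes, 22.0% of those tested as higher and 29.3% as lower, so a call by itself is common here. Egr1 alone of the 4 had no overlap in CPM between footprints and RNA of the deep set, which 10.6% of 15520 genes showed in that direction and 65.8% in either. Over all 5 vehicle and 5 RNA-seq libraries each of the 4 genes overlapped, where 2.29% of genes were higher without overlap and 24.4% did not overlap in either direction.

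The size of these ratios depends on the scaling. TMM, which sets the bulk of genes level, gave a median log2 ratio of -0.17 over all genes, while scaling by total counts gave -0.68 and turned the split of calls from 2355 higher and 3142 lower into 814 higher and 5665 lower. On total counts Egr1 kept its call over all libraries (log2 1.53, edgeR adjusted p = 0.00527) and in the deep set (log2 2.23, adjusted p = 0.000285). The other calls of the deep set were lost on total counts, with adjusted p of 0.0634 for Fos, 0.166 for Jun and 0.469 for Arc. Over all libraries the ratios of Arc (-0.15) and Jun (-0.05) changed sign on that scale. Without vehicle library 4, the TMM fit over the other libraries called Fos (log2 1.07, adjusted p = 0.0437), Jun (0.66, 0.0329) and Arc (0.65, 0.0443) as higher. That fit called 7085 of 16365 genes, 3001 as higher and 4084 as lower, so a call was common there too.

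In the shallow set, 2 against 2 libraries, none of the 4 genes passed edgeR's test, where 3.79% of 11642 genes did, 1.61% as higher and 2.18% as lower. The log2 ratio of Egr1 was 0.64 (interval -0.31 to 1.60, adjusted p = 0.443), that of Fos -0.75 (-3.42 to 1.91, adjusted p = 0.778), that of Jun -0.38 (-1.34 to 0.59, adjusted p = 0.682) and that of Arc -0.52 (-2.53 to 1.49, adjusted p = 0.799). The share of genes with a lower ratio was 81.3% for Egr1, 25.9% for Fos, 37.8% for Jun and 32.6% for Arc. CPM did not overlap for Egr1, higher in footprints as in 12% of 15520 genes, nor for Jun and Arc, lower as in 38.5%. Of these 15520 genes, 50.5% did not overlap in either direction. Counting intervals of vehicle 5 and RNA-seq 5 did overlap for each of these genes. They were 35.7 to 51.5 and 29.0 to 53.2 CPM for Egr1, and 34.1 to 49.5 and 33.5 to 59.2 CPM for Jun. For Arc they were 8.68 to 17.3 and 8.07 to 22.9 CPM.

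**Figure D2:**
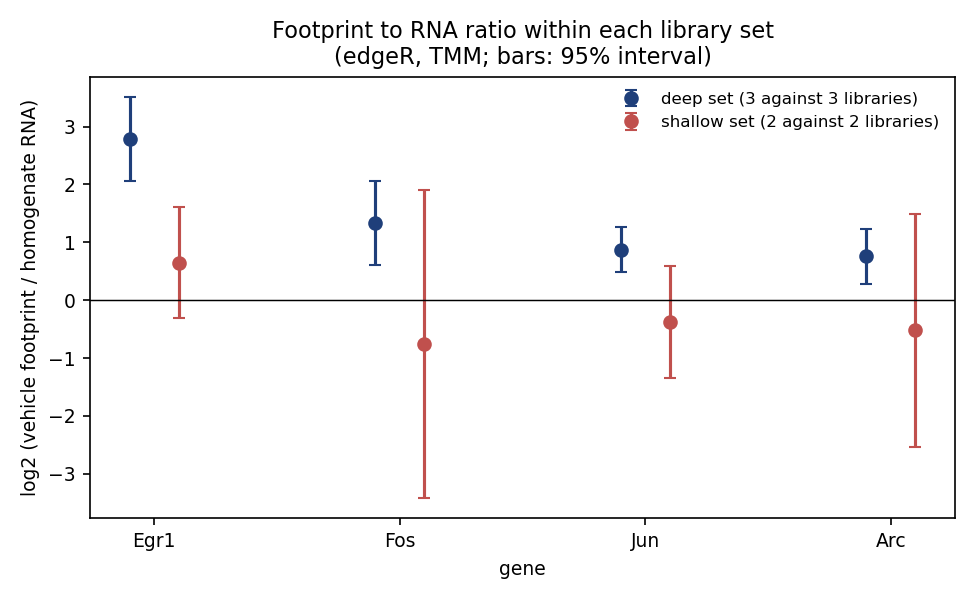
Log2 ratio of vehicle footprints to homogenate RNA (y axis) for each gene (x axis) in the deep and the shallow set, from edgeR with TMM scaling, with 95% intervals. The 4 deep-set intervals lie above 0, from 0.28 at the lowest for Arc, and the 4 shallow-set intervals include 0.

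The difference between the sets was tested itself, as an interaction term. The ratio of Egr1 was lower in the shallow set by 2.20 on the log2 scale (interval -3.35 to -1.05, edgeR adjusted p = 0.0475), in a test that called 2.47% of 16191 genes 0.488% as higher and 1.98% as lower. Differences of the other genes had the same sign without a call by edgeR: Fos -2.11 (interval -3.95 to -0.27, adjusted p = 0.18), Jun -1.29 (-2.15 to -0.43, adjusted p = 0.0934) and Arc -1.29 (-2.75 to 0.17, adjusted p = 0.301). The median over all genes was -0.27. A lower difference than that of Egr1 was found in 12.4% of genes, against 12.9% for Fos, 21.3% for Jun and 21.4% for Arc. The Egr1 call depended on the setting: its adjusted p was 0.0636 with RLE factors and 0.0867 with total counts, but 0.0335 without a filter and 0.00679 by DESeq2 (log2 -2.04). DESeq2 also called Jun (log2 -1.14, adjusted p = 0.0428). It called more genes than edgeR, 1578 of 19860 fitted, 712 as higher and 866 as lower. In edgeR's fit the adjusted p of Egr1 was 0.0501 to 0.172 without any 1 of vehicle libraries 2, 3 and 4 or any 1 of the 5 RNA-seq libraries, and 0.0217 and 0.0224 without vehicle libraries 1 and 5. Without vehicle library 5 the differences of Fos (-3.14, adjusted p = 0.0391), Jun (-1.60, 0.0219) and Arc (-2.57, 0.0122) were called too. Calls over all genes moved with the same choice, from 79 higher and 321 lower to 92 and 92 on total counts, and to 3031 genes in all without vehicle library 5.

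Homogenate RNA of the sets was then compared directly, to see how far these genes vary between homogenates. Egr1 RNA was 6.13-fold higher in the shallow set (log2 2.61, interval 1.76 to 3.47, edgeR adjusted p = 0.00805), and 98.6% of genes had a lower log2 difference, sign included. The adjusted p stayed between 0.00761 and 0.0485 when each RNA-seq library was left out. Arc was 1.77-fold higher (log2 0.82, interval 0.13 to 1.51, adjusted p = 0.132), Fos 1.58-fold (0.66, -0.42 to 1.74, adjusted p = 0.405) and Jun 1.42-fold (0.50, -0.05 to 1.05, adjusted p = 0.225), none of which passed the test. Thus 1 of 4 genes was called, against 5.85% of 15930 genes, 3.92% as higher and 1.93% as lower. On total counts that split went from 624 higher and 308 lower to 569 and 1049, and Egr1 kept its call (log2 2.44, adjusted p = 0.00778). In CPM, Egr1 and Arc were higher in the shallow set without overlap, as were 14.5% of genes, while 36.4% were lower and 50.9% did not overlap in either direction. The Fos difference rested on RNA-seq 5 and was -0.075 without it. Set, depth and whatever else was done differently for these libraries cannot be told apart.

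Vehicle footprints were compared between the sets in the same way, and none of the 4 genes was called, where 0.128% of 14072 genes were. Egr1 footprints were 1.48-fold higher in the shallow set (log2 0.57, interval -0.16 to 1.30, edgeR adjusted p = 0.297). Fos (log2 -1.30, interval -2.83 to 0.22, adjusted p = 0.263), Jun (-0.65, -1.32 to 0.02, adjusted p = 0.22) and Arc (-0.34, -1.67 to 1.00, adjusted p = 0.741) had negative differences. CPM of the sets did not overlap for Egr1, higher as in 15.3% of genes, and for Fos and Jun, lower as in 30.8% (46.1% in either direction). Arc changed sign to 0.28 without vehicle library 4.

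Counts of 2 genes in 1 library share its depth and scaling, so their quotient is free of both. Gene length is not corrected, and the quotient is therefore read only between libraries. Egr1 counts per Jun count were 0.0706, 0.156 and 0.199 in RNA-seq 1 to 3 and 0.412 and 0.882 in RNA-seq 4 and 5. In vehicle footprints they were 0.426, 0.529 and 0.590 in libraries 1 to 3 and 1.46 and 1.04 in libraries 4 and 5. The shallow set was above the deep set in both kinds of library, with no overlap. Single genes often failed to overlap between the sets as well (50.9% in RNA and 46.1% in vehicle footprints), and in vehicle footprints Jun itself was lower in the shallow set without overlap. Fos per Jun did not separate the sets: 0.105 to 0.154 in deep and 0.0706 and 0.255 in shallow RNA, and 0.118 to 0.232 in deep and 0.0678 and 0.138 in shallow vehicle footprints. Arc per Jun overlapped likewise, at 0.184 to 0.224 in deep and 0.212 and 0.314 in shallow RNA. These quotients are descriptions and were not tested.

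**Figure D3:**
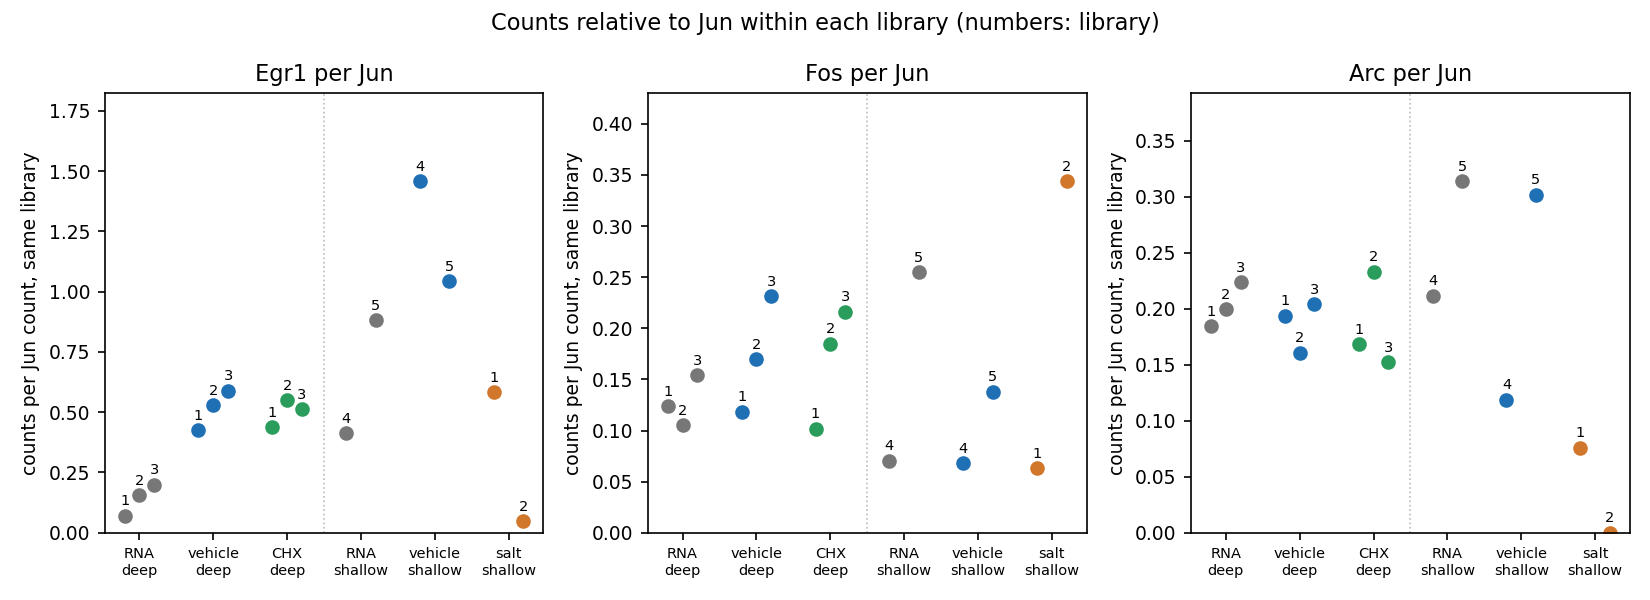
Counts of Egr1, Fos and Arc per Jun count of the same library (y axis, linear, 1 panel a gene) by kind and library set (x axis), with the library number at each point; CHX is cycloheximide. Egr1 per Jun runs from 0.0706 to 0.199 in deep RNA and from 0.412 to 0.882 in shallow RNA, and is 0.0469 in salt library 2.

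Within a set, the genes differed in how much they varied between homogenates. Over RNA-seq 1 to 3 the SD of log2(CPM + 1), TMM-scaled, was 0.52 for Egr1, against a median of 0.21 and a 95th percentile of 0.59 over 15930 genes, and 92.6% of genes had a smaller SD. RNA-seq 1 was the low library for Egr1, and its counting interval of 2.62 to 5.19 CPM did not reach those of RNA-seq 2 (5.28 to 8.16) and 3 (6.67 to 9.86). Fos (SD 0.27), Jun (0.16) and Arc (0.099) lay near or below the median. RNA-seq 1 was not the low library for the other 3 genes. It had the highest Jun value (counting interval 48.6 to 57.9 CPM, against 38.8 to 45.9 and 37.5 to 44.5), while for Fos and Arc its interval overlapped those of both other libraries. In RNA-seq 4 and 5 Fos differed most, 2.12-fold between the libraries on the same log2(CPM + 1) scale, with counting intervals that overlapped (1.74 to 10.3 and 6.11 to 19.6 CPM). Arc differed 1.04-fold there, on 36 and 32 counts, with wide counting intervals (8.42 to 22.5 and 8.07 to 22.9 CPM). Over these 2 libraries 82.1% of 15930 genes had a smaller SD than Fos, and 11.3% had a smaller SD than Arc.

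Footprints of the deep set varied in another order. Fos had the largest SD of log2(CPM + 1) in vehicle 1 to 3, 0.54, with 91.4% of 14072 genes below it, and in cycloheximide 1 to 3, 0.75, with 95% below it. Egr1 followed at 0.36 in vehicle libraries, while Arc (0.16) and Jun (0.14) lay under the median of 0.25. In cycloheximide libraries Egr1 (0.402), Arc (0.389) and Jun (0.262) lay above the median of 0.255, Jun only just. In both treatments library 1 was the lowest for Fos, Egr1 and Jun. The counting intervals of Fos in vehicle 1 (5.31 to 6.98 CPM), 2 (9.0 to 11.1) and 3 (12.5 to 14.5) did not overlap. In RNA-seq, library 1 was not the lowest for Fos or Jun. The labels do not state whether equal numbers mark the same homogenate.

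The cycloheximide comparison asked whether the inhibitor, present while ribosomes were released from the tissue, altered the footprints. No change of these 4 genes was detected. Fos footprints were 4.99, 11.6 and 15.1 CPM with cycloheximide against 6.10, 9.99 and 13.4 CPM in vehicle libraries 1 to 3. Egr1 footprints were 21.5, 34.3 and 35.7 CPM with cycloheximide, Jun footprints 49.1, 62.4 and 69.8 CPM, and Arc footprints 8.26, 14.5 and 10.6 CPM. The groups overlapped in each gene, where 3.66% of 14269 genes did not overlap, 2.39% being higher.

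With the library set as a term, log2 differences were 0.06 for Fos (interval -1.05 to 1.18), 0.04 for Egr1 (-0.57 to 0.64), 0.06 for Arc (-0.88 to 1.00) and 0.07 for Jun (-0.42 to 0.57), each with an edgeR adjusted p of 1. This fit does not use the library numbers. In it the interval for Jun excludes changes beyond 1.48-fold up or 0.747-fold down, and for Fos it reaches from 0.482-fold to 2.27-fold. Called genes were 0% of all, with 32 genes at an unadjusted p under 0.05, and DESeq2 called 0 with 45 such genes. A further edgeR fit had a term for library number in place of the set. It gave log2 differences of 0.01 for Fos, 0.03 for Egr1, 0.03 for Arc and 0.06 for Jun. Their SE was then 0.18, 0.11, 0.21 and 0.11, against 0.50, 0.27, 0.42 and 0.22 with the set term. Same-numbered libraries had correlated deviations over all genes, but cycloheximide 2 and 3 deviated more like a vehicle library of another number. Within these pairs cycloheximide per vehicle was 0.818, 1.16 and 1.12 for Fos and 0.979, 1.10 and 1.04 for Egr1. For Jun it was 0.951, 1.06 and 1.20, and for Arc 0.826, 1.54 and 0.897, so no gene moved 1 way in all 3 pairs. The sign of these small differences turned for each gene when some library was left out.

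The salt comparison asked whether raising NaCl before digestion altered the footprints, and here the 2 salt libraries went different ways. Egr1 had 46 counts (48.9 CPM) in salt 1 and 3 counts (2.59 CPM) in salt 2, an 18.9-fold gap, against 45.4 and 43.1 CPM in vehicle 4 and 5. Arc had 6 counts (6.37 CPM) in salt 1 and 0 counts in salt 2, where 3 counts would be 2.59 CPM. Fos had 5 counts (5.31 CPM) in salt 1 and 22 counts (19.0 CPM) in salt 2, against 2.11 and 5.70 CPM in the vehicle libraries. Jun had 79 and 64 counts, 83.9 and 55.2 CPM, and was above vehicle 4 and 5 (31.1 and 41.3 CPM) in both. Salt 2 was low for Egr1 and Arc and high for Fos, so it was not low throughout. It had fewer genes with a count (11094) than salt 1 (12483), on more counts (1158674 against 941546). Vehicle 4 had 11592 such genes and vehicle 5 had 13215. Whether this bears on the gaps between the salt libraries was not tested.

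None of these differences passed edgeR's test, which called 0% of 11547 genes, with 788 at an unadjusted p under 0.05; DESeq2 called 21 genes. Jun was 1.92-fold higher with salt (log2 0.94, interval 0.14 to 1.75, unadjusted p = 0.0257, adjusted p = 0.703), and 13.7% of genes were higher without overlap, of 28.7% that did not overlap in either direction. Fos (log2 1.62, interval -0.37 to 3.61, adjusted p = 0.771) had a wide interval and was 0.37 without salt library 2 and 2.63 without vehicle library 5. Egr1 (-0.80, -2.53 to 0.92, adjusted p = 0.892) turned to 0.14 without salt library 2 and was -4.06 without salt library 1. Arc had a fitted value of -1.46 (-4.01 to 1.09, adjusted p = 0.858), which was -0.41 without salt library 2 (without salt library 1 the treated group is at 0 and no value is read), -2.13 without vehicle library 4 and -0.26 without vehicle library 5. The intervals reached from 0.771-fold to 12.2-fold for Fos and from 0.173-fold to 1.90-fold for Egr1, so changes within them were not told from none.

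**Figure D4:**
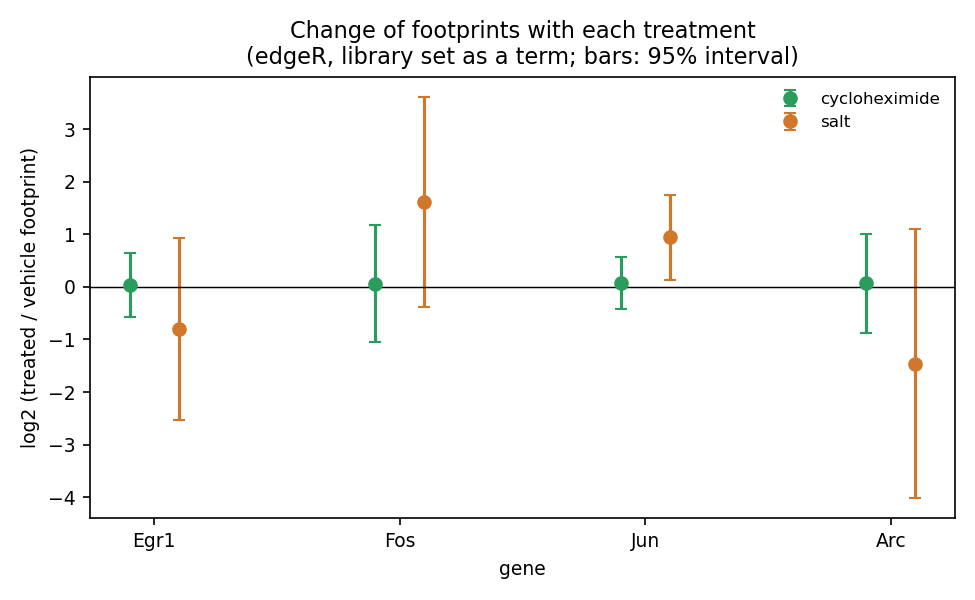
Log2 difference of treated from vehicle footprints (y axis) for each gene (x axis), with 95% intervals from edgeR with the library set as a term. Cycloheximide values lie between 0.04 and 0.07 with intervals across 0, and salt values run from -1.46 for Arc to 1.62 for Fos, with an interval clear of 0 for Jun alone (0.14 to 1.75, adjusted p = 0.703).

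Likeness of the genes over all 15 libraries was measured as Pearson's r of log2(CPM + 1) after TMM scaling, beside 9291 other genes (those with a mean of at least 10 CPM, and the other members). The libraries share kind, set and depth, so r describes a pattern and carries no test. Fos and Jun, the partners in AP-1, had r = 0.59, and 749 genes were more like Fos than Jun was. Egr1 and Arc had r = 0.57, and 783 genes were more like Egr1. Fos had r of 0.03 with Egr1 and -0.10 with Arc, near the median of all genes with Fos (0.03). Jun had r of 0.40 with Egr1 and 0.14 with Arc, where the median of all genes with Jun was 0.02. The closest gene to any member reached 0.93, without a name in the table.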

How the data were processed

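Raw counts per Ensembl rat gene were deposited by the authors in 1 table of 15 columns. The submitters' processing notes name the build Rnor_6.0 and CASAVA, cutadapt 2.8, Bowtie2 2.3.5, STAR 2.7.3a and deepTools; the counter, annotation and strand setting are not given in the sources used here. Columns were matched to samples by title. Totals and tests exclude 6 genes that have empty cells. In RNA-seq libraries 88.4% to 97.7% of nonzero counts were even (19 of the 20 member counts), as when both mates of a pair are counted, so RNA-seq intervals were computed on pairs. Counting error is all that the CPM counting intervals and floors cover. Intervals of log2 values come from the edgeR fits and include the spread between libraries.

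The members and lists were chosen with earlier results of these data known. Tests were edgeR 4.0.16 quasi-likelihood F-tests (R 4.3.3; TMM, filterByExpr, robust), with Benjamini-Hochberg adjustment over all genes tested and a threshold of 0.05, and the library set as a term in the treatment and footprint to RNA comparisons. SE was the absolute log2 change over the square root of F. The procedure was tested on simulated data. DESeq2 1.42.0 and other settings were alternatives. Cycloheximide and vehicle libraries of 1 number had correlated deviations from the means of their groups (r = 0.36, 0.46 and 0.49 over 12018 genes). Those numbers were therefore set side by side as pairs, but were not used in the main fit. Cycloheximide 2 and 3 deviated more like a vehicle library of another number. The numbers of RNA-seq (-0.08 to 0.24) and of salt were not taken as pairs. Replicates of a group differed by more than sampling noise (smallest chi-square per degree of freedom 7.58 over 24 pairs). The naming rule was: the 4 members in every comparison, genes of the lists that were called, and the named genes most like a member; the table gives no names, so only members were named. The 12 lists of other immediate early genes and cell type markers, 116 symbols, were not analysed here, since no identifiers paired them with rows.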

Additional observations from a re-analysis of the deposited data

Results flagged for a closer look

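The footprint to RNA ratio of Egr1 differed between the library sets in the test of the difference itself, with a log2 difference of -2.20 for the shallow set (edgeR adjusted p = 0.0475). The call was lost with RLE factors (edgeR adjusted p = 0.0636) and on total counts (0.0867). Library set, depth and preparation cannot be told apart. No library of the 8 groups of 5 checked (4 genes in vehicle footprints and in RNA-seq) stood far from the rest of its group by Dixon's criterion. RNA-seq 5 came closest for Fos, with a gap of 0.701 of the range against a critical 0.71. Each group joins deep and shallow libraries, so a library far from the others of its own set can be missed.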

How the results depend on the processing

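Of 150 values of the 4 genes under other settings, 132 kept their direction and side of the threshold, and of 180 with 1 library left out, 155 did. In the shallow set Fos and Arc rest on 0 to 36 counts. Within the sets and on total counts, the footprint to RNA values stand in the report. Without a library set term the Egr1 ratio was 1.51 (edgeR adjusted p = 0.0627) and its cycloheximide difference -0.21. Within-set fits on total counts, chosen after seeing the data, gave 8779 calls in the deep set and 420 in the shallow set, with shallow ratios of -1.03 for Fos, 0.38 for Egr1, -0.80 for Arc and -0.64 for Jun; the shallow TMM fit gave 441 calls and ratios of -0.75, 0.64, -0.52 and -0.38. The deep TMM ratios were 1.34 for Fos, 0.76 for Arc and 0.87 for Jun, and total counts over all libraries gave -0.15 for Arc and -0.046 for Jun. Thinning the deep libraries to 2375704 counts gave 1700 calls of footprints against RNA. With a replicate block, salt called 450 genes (202 higher, 248 lower), pairing salt 1 and 2 across sets with vehicle 1 and 2, and no call of the 4 genes changed in the 3 comparisons fitted with it; footprints against RNA called 4316 and cycloheximide 0, with 686 genes at an unadjusted p under 0.05. Of 5 RNA-seq libraries, numbers 1, 3, 4 and 5 did not deviate most like their own vehicle number. DESeq2 called 21 genes for salt, 1578 for the difference of ratios between sets, 2456 for RNA between sets and 1626 for vehicle footprints between sets, where no filter gave 32; total counts gave 184 for the difference of ratios and 1618 for RNA between sets. With 1 library left out, calls ran from 4207 to 7085 for footprints against RNA, from 37 to 3031 for the difference of ratios, from 142 to 1622 for RNA between sets and from 15 to 3648 for vehicle footprints between sets. Over the same fits the footprint to RNA ratio ran from 0.42 to 1.09 for Fos, 1.75 to 2.32 for Egr1, 0.23 to 0.65 for Arc and 0.35 to 0.66 for Jun. Cycloheximide differences ran from -0.26 to 0.42 for Fos, -0.13 to 0.26 for Egr1, -0.19 to 0.27 for Arc and -0.021 to 0.23 for Jun, the salt difference of Egr1 from -4.06 to 0.14, the RNA difference of Fos between sets from -0.075 to 1.15 and the vehicle footprint difference of Arc from -1.59 to 0.28. The cause of these movements was not tested.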
